A study of Mus musculus with 28 samples.

Results

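Chemokine ligands are the small secreted proteins that direct the movement of leukocytes. They were taken here as the genes whose name on the array begins with Ccl or Cxcl and a number, together with Cx3cl1, Xcl1, Pf4 and Ppbp. This gave 37 genes on 46 probes, of 28034 genes on the array. A probe counted as measured where its Cy3 signal was well above background on at least 2 arrays. By this filter 34 genes with 42 probes were tested among 21047 genes, and Ccl1, Ccl22 and Cxcl15 were not.

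The series holds 28 two-colour arrays of C57BL/6 mouse samples in 13 groups, each sample in Cy3 beside a commercial mouse reference RNA in Cy5. The organoids are liver cultures grown from single cells isolated for Lgr5, a receptor of the Wnt pathway. They were kept in expansion medium (EM, 2 arrays) or in differentiation medium (DM, 1 array, without replicate). The undamaged livers are adult liver of wildtype mice (2) and whole liver tissue (2). The other liver samples are a hepatocyte fraction (2), ductal cells sorted for the surface antigen Mic1-1c3 (2), liver at day 3 (2) and day 13 (2) of treatment with carbon tetrachloride (CCl4), a toxin of hepatocytes, and cells sorted for Lgr5 at day 6 of CCl4 (2). Wildtype mice gave muscle (3), pancreas (2), and white (3) and brown (3) adipose tissue. The labels give no age, sex or CCl4 schedule. They call the arrays of a group biological replicates, with no word on separate animals, so a p-value measures a difference against the spread between arrays, which may in part be technical.

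Chemokines bind receptors coupled to G proteins on leukocytes and on some tissue cells. The CXC ligands with the motif ELR (Cxcl1, Cxcl2, Cxcl3, Cxcl5 and Ppbp in mouse) act on Cxcr2 and attract neutrophils, whereas Cxcl9, Cxcl10 and Cxcl11 act on Cxcr3 of T cells and natural killer cells and are induced by interferon. The inflammatory CC ligands, such as Ccl2 and Ccl5, attract monocytes, T cells or eosinophils, and the ligands of lymphoid and epithelial tissue, such as Ccl19, Ccl20 and Ccl28, guide lymphocytes and dendritic cells to those sites. Cx3cl1 and Cxcl16 are made as membrane proteins. In liver, injured hepatocytes, Kupffer cells, stellate cells, endothelium and bile duct epithelium can all produce chemokines, and many of the genes are induced through NF-kB.

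The results turn on 4 of the neutrophil-attracting ligands, which lie close together on chromosome 5 and did not move alike. The probes that measured them are printed so that the measured transcript ends can be found. Each is a 60-base sequence on the plus strand in mm9, the build of the files, from the scanner files. Cxcl1 was read at chr5:91321845-91321904, Cxcl2 at chr5:91334534-91334593, Cxcl3 at chr5:91216694-91216753 and Cxcl5 at chr5:91190205-91190264.
Cxcl1: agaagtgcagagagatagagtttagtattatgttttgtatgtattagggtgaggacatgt
Cxcl2: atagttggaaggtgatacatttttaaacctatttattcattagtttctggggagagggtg
Cxcl3: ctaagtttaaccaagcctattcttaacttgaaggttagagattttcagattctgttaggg
Cxcl5: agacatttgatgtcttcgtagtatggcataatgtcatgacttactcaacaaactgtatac
In their best ungapped overlap of at least 30 bases, on either strand, the probes of Cxcl1 and Cxcl2 shared 26 identical bases, the most among these 4. The highest count over all 666 pairs of the 37 probes used was 28.

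RefSeq promoters (GRCm38.p6) were at hand for 27 of the 37 genes. Shown are the 250 bases before the start of Cxcl1 (chr5:90890995-90891244), Cxcl2 (chr5:90903649-90903898) and Cxcl3 (chr5:90785851-90786100), and of Cxcl10 (chr5:92348890-92349139), whose levels parted in the organoids, each 5′ to 3′ on the gene's own strand, which is plus for Cxcl1, Cxcl2, Cxcl3 and minus for Cxcl10. Capitals mark matches to the kappaB motif GGGANNNNCC, bound by NF-kB, or to the interferon-stimulated response element TTTCNNTTTC, each on either strand.
Cxcl1: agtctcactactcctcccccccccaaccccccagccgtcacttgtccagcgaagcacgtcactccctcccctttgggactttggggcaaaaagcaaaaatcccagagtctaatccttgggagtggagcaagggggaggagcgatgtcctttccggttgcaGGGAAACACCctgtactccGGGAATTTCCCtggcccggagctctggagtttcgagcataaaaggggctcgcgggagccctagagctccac
Cxcl2: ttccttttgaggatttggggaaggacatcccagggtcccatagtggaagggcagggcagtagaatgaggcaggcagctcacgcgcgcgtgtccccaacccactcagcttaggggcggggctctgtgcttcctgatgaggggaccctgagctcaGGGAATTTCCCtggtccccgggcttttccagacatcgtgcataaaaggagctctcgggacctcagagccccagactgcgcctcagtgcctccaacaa
Cxcl3: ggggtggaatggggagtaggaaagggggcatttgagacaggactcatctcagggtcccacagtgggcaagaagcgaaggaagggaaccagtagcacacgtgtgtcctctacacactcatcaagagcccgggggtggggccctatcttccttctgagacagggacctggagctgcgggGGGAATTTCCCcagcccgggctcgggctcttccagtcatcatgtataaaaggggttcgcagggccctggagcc
Cxcl10: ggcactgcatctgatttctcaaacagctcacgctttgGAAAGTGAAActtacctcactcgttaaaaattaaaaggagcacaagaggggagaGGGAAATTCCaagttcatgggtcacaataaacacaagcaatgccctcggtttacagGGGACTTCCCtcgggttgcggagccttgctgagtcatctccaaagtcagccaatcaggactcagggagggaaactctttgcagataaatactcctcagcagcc
Cxcl1, Cxcl2 and Cxcl3 held the same kappaB match, GGGAATTTCC, beginning at base -71, -97 and -73 from the start, with a second match 1 base on from it on the other strand. Cxcl1 alone of these held a further match, GGGAAACACC, at -90. Cxcl10 held kappaB matches at -159 and -103 and a response element on the minus strand at -213. The AP-1 motif TGANTCA, not in capitals, was found in Cxcl10 at -74. In windows of the same length, 17.6% of all 32851 promoters held a kappaB match, 2.98% a response element and 6.75% the AP-1 motif. Counted by gene, 11, 3 and 4 of the 27 ligands held the motif in at least 1 promoter. Some genes have several promoters, so these counts by gene are not on the scale of the shares. A match is a run of letters and says nothing about binding in these samples.

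Values are log2 ratios of sample over reference, so 0 is the level of the reference RNA and levels of different genes cannot be set against each other. Between 17.7 and 69.1% of an array's probes were well above background. It was lowest on pancreas 1 and on the Lgr5-sorted arrays, at 18.5 and 21.5%. In bulk samples, fewer cells of a type and less RNA per cell cannot be told apart. Markers set the samples apart mostly as labelled, but the Lgr5-sorted and sorted duct cells were among the exceptions. Of 10 bile duct markers 7, among them Krt19, Epcam and Sox9, were above background on neither Lgr5-sorted array. In that group the summed Cy3 signal of 16 macrophage markers was 1150000 to 3560000, against 91000 to 102000 in sorted duct cells. All 12 endothelial and all 12 stellate cell and fibroblast markers were above background on both duct arrays. Endothelial sums were 133000 to 162000 in sorted duct cells against 18600 to 25700 in the undamaged livers. Stellate cell and fibroblast sums were 182000 to 542000 against 16400 to 29600. The Y-linked gene Eif2s3y differed between groups that are compared below. It stood at 1.72 to 2.84 in adult liver, hepatocytes, day 3 and the DM organoid. It stood at -2.96 to -1.09 in the EM organoids, sorted duct cells and day 13, and at 2.61 and -0.91 in whole liver. Sex and group therefore cannot be told apart in EM against adult liver, DM against EM, duct against hepatocytes and day 13 against day 3. Comparisons that use whole liver, above all day 13 against undamaged liver, were unbalanced in this gene too. In white adipose tissue Eif2s3y varied between arrays, at 1.88, 0.88 and 2.62. Brown adipose tissue read 3.28 to 3.34 and muscle 2.17 to 2.34. No slide or scan day was shared in EM against duct, brown against white adipose tissue, or day 3 or day 13 against undamaged liver. In these, group cannot be told apart from slide and scan day.

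**Figure D1:**
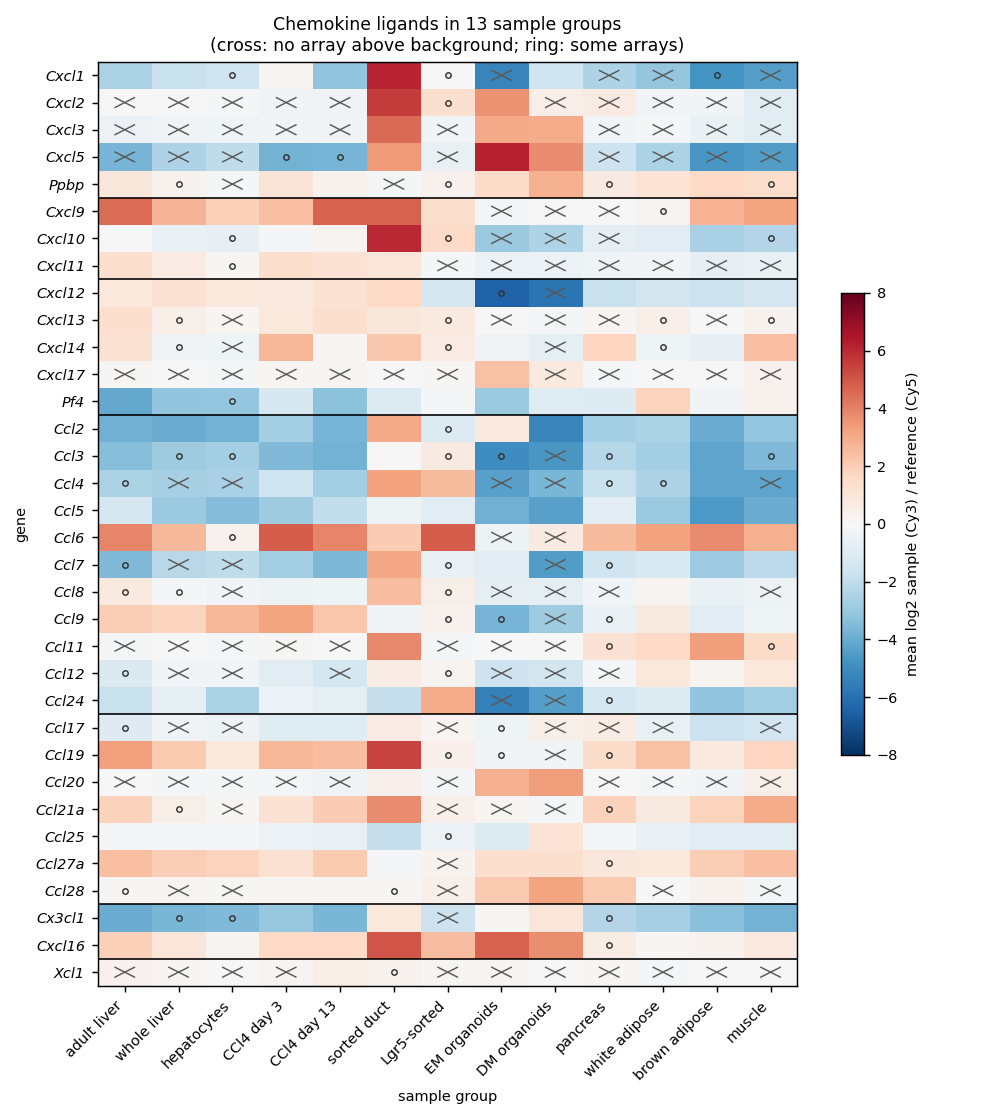
Mean log2 ratio of sample to reference for the 34 tested ligands (rows, in families parted by lines) in the 13 groups (columns), with colour from -8 (blue) to 8 (red). Crosses mark groups with no array above background and rings groups with only some. Cxcl5 was highest in EM organoids, and Cxcl1 and Cxcl10 in sorted duct cells.

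Sorted duct cells had the most ligands above background, 32 and 30 of the 37 on their arrays, as the plot of group means shows. Liver at day 3 and day 13 of CCl4 had 27 to 29, adult liver 21 and 27, whole liver 21 and 16 and hepatocytes 17 and 10. EM organoids had 21 and 16, the DM organoid 13, and the Lgr5-sorted arrays 20 and 10. Brown adipose tissue had 25 to 27, white adipose tissue 21 to 24, muscle 17 to 22, and pancreas 8 and 20. These counts are not adjusted for the share of all probes above background on each array. It was 57.8 and 39.6% for duct cells and 61.3 to 62.7% for CCl4 livers. Adult liver had 46.8 and 60.9% and whole liver 45.5 and 35.5%. Hepatocytes had 41.5 and 33.1%, EM organoids 53.8 and 31.4%, the DM organoid 30.8% and Lgr5-sorted cells 21.5 and 18.5%. Brown adipose tissue had 65.2 to 69.1%, white 45.9 to 52.9%, muscle 40.3 to 59.8% and pancreas 17.7 and 44%.

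In the comparisons a call needed an absolute log2 difference of 1 or more and p below 0.05 after Benjamini-Hochberg adjustment across all genes, in a limma fit to all 28 arrays. A number ± another is a log2 difference ± standard error, first group minus second. Where no array of the lower group was above background, the difference is given as a bound, at least N-fold: the mean of the higher group over the lowest signal that counted as detected on the arrays of the lower group, or over the gene's own signal where that was higher. Values below background have no order among themselves.

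The comparison of organoids with adult liver asked how far the cultures differ from their tissue of origin. Ligands of most families differed between EM organoids and adult liver, in both directions. Cxcl5, Ccl2 and Cx3cl1 had the largest rises, and Cxcl12, Ccl9 and Cxcl9 the largest falls, in the fit. Of the 34 ligands 25 were called, 11 higher and 14 lower, where 32.0% of all genes tested were called, 14.4% higher and 17.6% lower. The median difference was -1.01 for the ligands and -0.09 for all genes. With the filter set at 6 arrays, 23 of 29 ligands were called, 7 higher and 16 lower.

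Of the neutrophil-attracting ligands, 3 of 5 were higher and 1 was lower. Cxcl5, a ligand known from epithelial cells, stood at 6.05 and 6.31 on the EM arrays and at -3.86 and -3.52 in adult liver, where it was not above background. It was at least 522-fold higher (9.86 ± 0.58, adjusted p = 4.11e-11). Cxcl2 read 3.55 and 3.66 in EM organoids against 0.12 and -0.02 in adult liver, at least 8.59-fold higher (adjusted p = 0.00141). These levels were reached on both organoid arrays and on no undamaged liver array, and Cxcl3 was at least 6.95-fold higher in the same way. Cxcl1 went the other way. It stood at -5.62 and -5.01, below background, in EM organoids and at -2.84 and -2.29 in adult liver, at least 2.68-fold lower (adjusted p = 0.00777). Without adult liver replicate 2 or EM replicate 1 that p was 0.0615 or 0.0589.

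**Figure D2:**
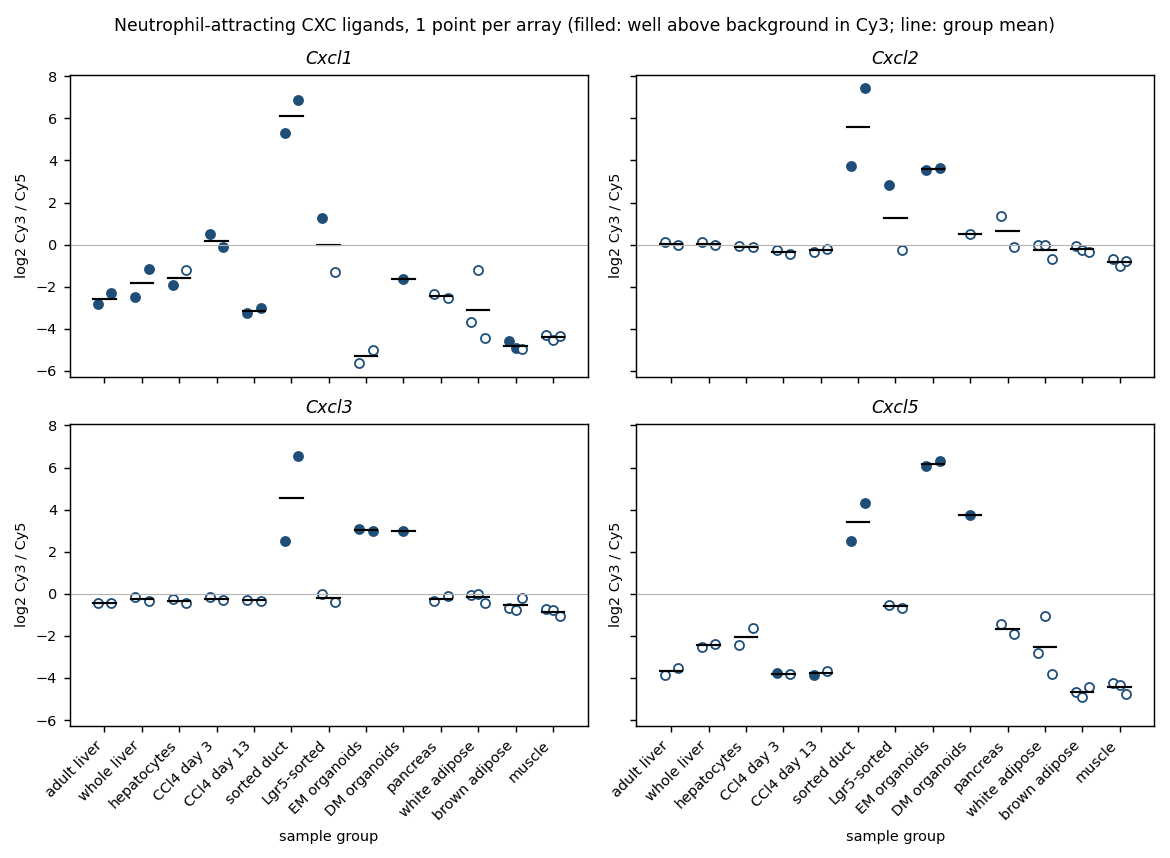
Log2 ratio of sample to reference (y axis) of Cxcl1, Cxcl2, Cxcl3 and Cxcl5 on each array, by group (x axis); filled points are well above background in Cy3 and lines are group means. All 4 were high in sorted duct cells, whereas Cxcl1 alone was below background on both EM organoid arrays.

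Of 11 inflammatory CC ligands, 2 were higher in EM organoids and 4 lower (median -1.57). Ccl2, the main ligand of Ccr2, read 0.78 and 0.76 against -4.17 and -3.50 in adult liver (4.60 ± 0.52, adjusted p = 3.37e-07), and its neighbour Ccl7 was 2.72 ± 0.65 higher. Cx3cl1, which binds Cx3cr1 of monocytes, read -0.06 and 0.21 against -4.47 and -3.46 (4.04 ± 0.34, adjusted p = 5.76e-09). A second Cx3cl1 probe, above background on only 2 arrays of the series, differed by 0.00. For Ccl2, and for Cx3cl1 by the probe used, the EM arrays lay close together and above both livers. The EM arrays of Ccl7 read -0.27 and -1.41. Cxcl16, the other transmembrane ligand, was 2.85 ± 0.47 higher. Of 7 lymphoid and epithelial CC ligands 2 were higher and 3 lower (median -0.91). Ccl20, which attracts Ccr6-bearing lymphocytes and dendritic cells, was at least 5.7-fold higher and Cxcl17, a mucosal chemokine, at least 15.5-fold higher. Cxcl17 was above background on the EM arrays alone and passed the filter only through them, so its call is not independent of that choice. Ccl28, of mucosal epithelium, was called at 1.98 ± 0.64, but its EM arrays read 0.63 and 3.56, and without the second the difference was 0.51 (adjusted p = 0.514). The platelet chemokine Pf4 was 1.08 ± 0.30 higher, and 0.75 (adjusted p = 0.093) without EM replicate 2.

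Among the lower ligands, Cxcl12, which holds blood cell progenitors in their niche through Cxcr4, read -7.04 and -5.83 in EM organoids and 0.80 and 0.84 in adult liver (-7.26 ± 0.34, adjusted p = 5.51e-11). A second Cxcl12 probe gave -5.53 and -5.62 against -0.25 and -0.58. Ccl9, a ligand of Ccr1, read -3.74 and -3.66 against 2.25 and 1.65 (-5.65 ± 0.35, adjusted p = 7.73e-11). Both genes were thus near the floor of the organoid arrays. In adult liver Ccl9 was above the reference, as was Cxcl12 by the probe used but not by the second probe. All 3 interferon-induced ligands of Cxcr3 were lower. Cxcl9 was below background at -0.21 and 0.07 against 3.37 and 5.60 in adult liver (at least 15.2-fold lower, adjusted p = 6.11e-06), Cxcl10 at least 4.42-fold and Cxcl11 at least 1.55-fold. The myeloid ligand Ccl6 read -0.60 and -0.20, below background, against 3.19 and 4.67 (at least 9.93-fold lower, adjusted p = 9.18e-04). Ccl24, an eosinophil attractant of macrophages, was at least 5.5-fold lower and Ccl19, a ligand of Ccr7, 3.55 lower on the log2 scale (-3.55 ± 0.65). Ccl5, Ccl21a, Ccl27a, Cxcl13 and Cxcl14 were called lower by 1.11 to 2.49 log2 units in the fit.

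The adult liver arrays differed for several of these. Cxcl10 read -1.30 on replicate 1 and 1.42 on replicate 2, and Ccl5 -3.09 and 0.44. Without replicate 2 the calls fell from 25 to 17, with Cxcl10 at -1.67 (adjusted p = 0.158) and Ccl5 at -0.73 (adjusted p = 0.259), and Cxcl13, Cxcl14 and Ccl21a lost their calls too (adjusted p from 0.136 to 0.354). Without EM replicate 1, Cxcl10 stood at -2.32 (adjusted p = 0.073) and Cxcl14 at -0.96 (adjusted p = 0.184). EM replicate 1 and adult liver replicate 1 were scanned on 1 day, and between them all 25 called ligands had the sign of the pooled value. None of the 25 overlapped between the groups, so this sign was fixed in advance and is no check on the scan day. With whole liver as the tissue compared, 18 of the 25 calls held. Cxcl14 then stood at 0.03, and Pf4, Ccl5, Ccl7, the lymphoid ligand Cxcl13, Ccl21a and Ccl27a were not called.

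Other lists moved with the ligands. Of 15 NF-kB feedback genes and inflammatory cytokines tested, 9 were higher in EM organoids and 0 lower (median 1.33), among them the adhesion molecule Icam1 (4.01 ± 0.50) and the NF-kB inhibitor Tnfaip3 (3.41 ± 0.67). Of 15 interferon-induced genes 13 were lower (median -2.93), the guanosine triphosphatases Iigp1 by at least 188-fold and Igtp at -5.51 ± 0.50. Of 20 chemokine receptors tested 4 were lower, Ackr2, a scavenger of CC ligands, by at least 5.27-fold. Markers of the other liver cells fell away too: 14 of 16 macrophage, 11 of 12 endothelial and 9 of 12 stellate cell and fibroblast markers were lower, while 9 of 10 bile duct markers were higher. Of the macrophage markers 1 was higher. On neither EM array were 8 of them above background, among them Adgre1, Clec4f and C1qa, and 2 were so on both. Summed macrophage signal was 27400 to 27500 in EM organoids and 51700 to 108000 in adult liver. All 9 hepatocyte markers tested were lower. Of 12 stress genes 5 were higher and 1 lower, with a sum of 49800 to 61700 in EM organoids against 12900 to 13200. Their part in the ligand differences was not tested.

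The DM organoid, grown in the medium meant to drive differentiation, was set against the EM organoids, which enter the comparison above as well. It is 1 array, and its spread was assumed to be that of the other groups. It held less Ccl2 and Ccl7 and more Ccl25, Cxcl1 and Pf4. Of 34 ligands 8 were called, 3 higher and 5 lower, where 10.3% of all genes were called, 6.25% higher and 4.02% lower. Of all called genes 60.8% were higher, and 49.4% with Agilent's log ratio. The median was 0.09 for the ligands and 0.04 for all genes.

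Ccl2 fell from 0.78 and 0.76 on the EM arrays to -5.28 on the DM array (-6.05 ± 0.63, adjusted p = 1.19e-06). Ccl7 read -0.27 and -1.41 against -4.44, below background (at least 3.52-fold lower, adjusted p = 0.00412). The DM array thus lay below both EM arrays for both neighbours. Cxcl5 read 6.05 and 6.31 against 3.75 (-2.43 ± 0.71, adjusted p = 0.028) and remained far above the livers. Cxcl2 read 3.55 and 3.66 against 0.50, below background (at least 3.28-fold lower, adjusted p = 0.0495), and Cxcl17 was at least 5.76-fold lower. Cxcl17 had passed the filter only through the EM arrays. Cxcl3 stood at 2.96 on the DM array and 3.10 and 2.99 on the EM arrays, and Ccl20 at 3.37 against 2.74 and 2.93, and neither was called.

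Cxcl1 was above background in the DM organoid, at -1.61, and not in the EM organoids, at -5.62 and -5.01 (at least 5.97-fold higher, adjusted p = 0.0152). Ccl25, a ligand of Ccr9 made by thymic and gut epithelium, read 1.12 against -1.41 and -0.72 (2.19 ± 0.30, adjusted p = 3.49e-05). Pf4 read -0.98 against -3.32 and -2.66 (2.01 ± 0.36, adjusted p = 6.84e-04). The DM array lay above both EM arrays for all 3. The calls of Cxcl5 and Cxcl2 were lost without either EM array (adjusted p from 0.0698 to 0.128), and that of Cxcl1 without EM replicate 1 (adjusted p = 0.0804). With Agilent's log ratio 4 ligands were called. Of the NF-kB list 5 of 15 were lower and 0 higher, led by the macrophage growth factor Csf1 (-4.54 ± 0.48) and Icam1 (-3.66 ± 0.62). In the interferon list 2 of 15 were higher, Irf7 (2.81 ± 0.57) and Oas1a (1.95 ± 0.52), and no receptor was called. Of 9 hepatocyte markers 4 were higher in the DM organoid and 0 lower (median 1.80), with a summed Cy3 signal of 9910 against 1350 to 1450 in EM organoids, and 1 of 16 macrophage markers was higher. Their part in the ligand levels was not tested. EM replicate 2 and the DM array shared a slide, and there all 8 called ligands had the same sign. As the DM array lay outside the EM arrays for all 8, it could not have been otherwise.

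Sorted duct cells were compared with the hepatocyte fraction, both named for epithelia of liver. The duct arrays also held the endothelial and the stellate cell and fibroblast markers described above. Duct cells had the higher level of most ligands, and of most members in the families of neutrophil attractants, inflammatory CC, Cxcr3 and transmembrane ligands. Of 7 lymphoid and epithelial CC ligands 2 were higher and 2 lower, and of 5 other CXC ligands 2 were higher. Of 34 ligands 22 were called, 19 higher and 3 lower, where 23.4% of all genes were called, 11.9% higher and 11.5% lower. The median was 2.58 for the ligands and 0.00 for all genes.

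Of the neutrophil-attracting ligands 4 of 5 were higher. Cxcl1 read 5.32 and 6.86 in duct cells against -1.94 and -1.21 in hepatocytes (7.67 ± 0.80, adjusted p = 1.82e-07). Cxcl2 was at least 76.1-fold, Cxcl5 at least 49.6-fold and Cxcl3 at least 37.4-fold higher. Both duct arrays lay far above both hepatocyte arrays, although they differed from each other, Cxcl2 reading 3.74 and 7.43. Of 11 inflammatory CC ligands 7 were higher. Ccl2 read 1.96 and 4.12 against -3.78 and -3.82 (6.84 ± 0.52, adjusted p = 1.85e-09). Ccl4, an attractant of monocytes and T cells, read 2.86 and 3.62 against -2.49 and -2.65, below background (at least 49.1-fold higher, adjusted p = 9.17e-05). The other higher CC ligands were Ccl7 (at least 38.7-fold), the eosinophil attractant Ccl11 (at least 23.3-fold), Ccl8 (at least 9.39-fold, but 1.45 with an adjusted p of 0.115 without duct replicate 2), Ccl5 (3.06 ± 0.68) and Ccl3 (2.67 ± 0.64).

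Cxcl10 read 5.55 and 6.45 in duct cells against -0.62 and -0.68 (6.66 ± 0.83, adjusted p = 1.92e-06), and Cxcl9 was 2.82 ± 0.64 higher, though 0.77 with Agilent's log ratio (adjusted p = 0.199) and 1.71 without duct replicate 2 (adjusted p = 0.0698). Both transmembrane ligands were higher, Cxcl16 at 4.83 ± 0.47 and Cx3cl1 at 4.36 ± 0.34. The second Cx3cl1 probe, above background on 2 arrays of the series, differed by 0.10. The ligands of Ccr7 followed, Ccl19 at 4.59 ± 0.65 and Ccl21a at least 51.5-fold, and so did Cxcl14 and Pf4. The mouse genome has near-identical copies of Ccl19, Ccl21a and Ccl27a, which these probes may not tell apart.

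Hepatocytes had the higher level of 3 ligands. Ccl9 read 2.74 and 2.60 in hepatocytes against -0.40 and 0.03 in duct cells (-2.86 ± 0.35, adjusted p = 1.57e-06). Ccl27a, known as a skin chemokine, read 1.62 and 1.89 against -0.07 and -0.07 (-1.82 ± 0.27, adjusted p = 1.68e-05). The hepatocyte arrays lay above the reference and the duct arrays near it. Ccl25 was at -1.66 ± 0.24, but a second Ccl25 probe differed by -0.21.

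**Figure D3:**
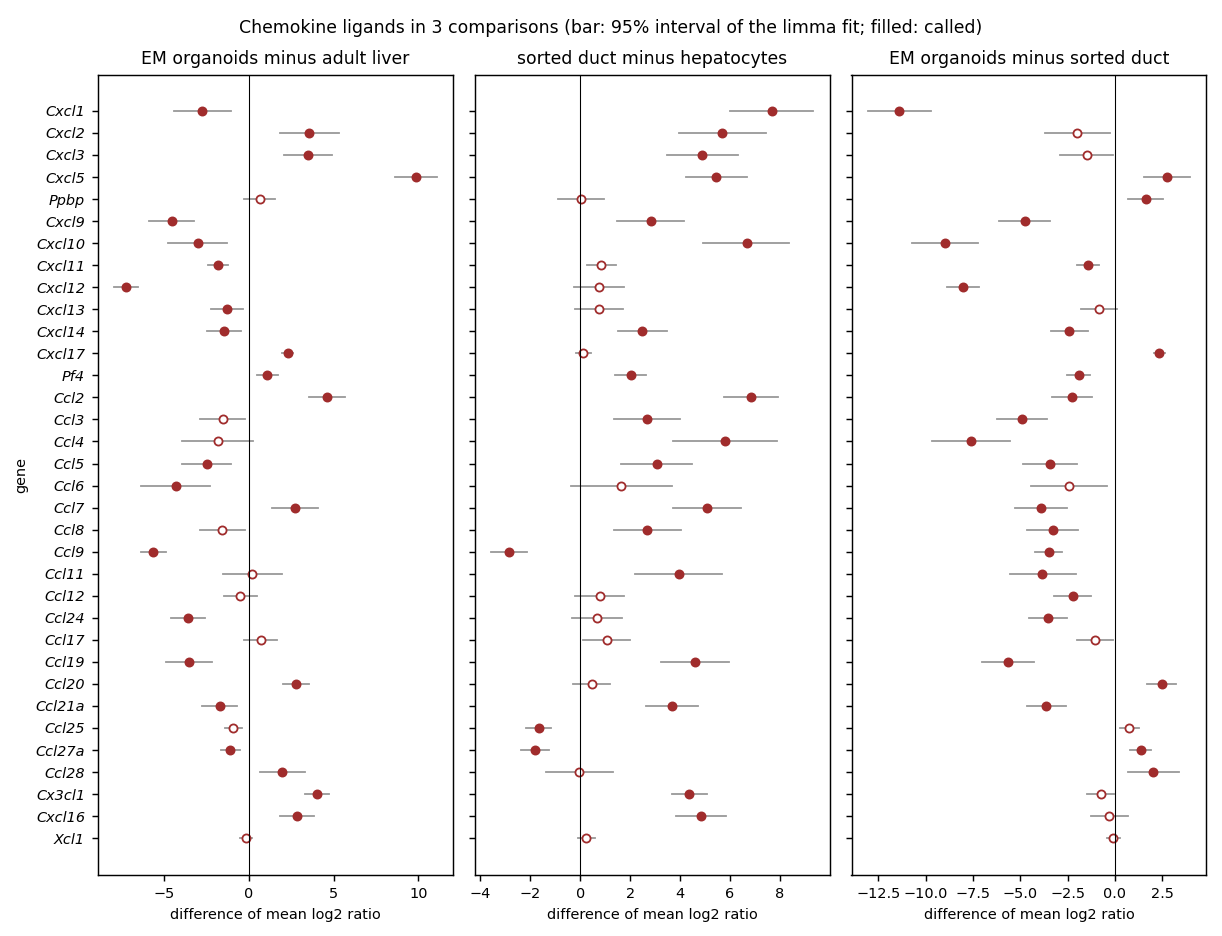
Difference of mean log2 ratios (x axis) for each tested ligand (y axis) in 3 comparisons, with the 95% interval of the limma fit; filled points were called. Cxcl1 lay at -2.75 for EM organoids against adult liver, 7.67 for duct cells against hepatocytes and -11.40 for EM organoids against duct cells.

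The arrays of slides 11 and 12 each hold 1 duct and 1 hepatocyte sample, and on both all 22 called ligands had the sign of the pooled value. Since none of the 22 overlapped between the groups, this had to be so. All 15 NF-kB genes tested were higher in duct cells, Il6 by at least 327-fold and Icam1 by 6.75 ± 0.50. Of the interferon list 7 of 15 were higher, led by Irf1 (4.57 ± 0.32) and Gbp3 (3.86 ± 0.57), and of the receptors 4 of 20, led by the atypical receptors Ccrl2 (at least 52.9-fold) and Ackr1 (at least 21.7-fold). All 12 genes of the list of immediate early and dissociation stress were higher too, with a summed Cy3 signal of 483000 to 704000 in duct cells and 7830 to 11900 in hepatocytes. Endothelial markers (10 of 12) and stellate cell and fibroblast markers (9 of 12) were also higher, with sums of 133000 to 162000 against 6890 to 10100 and of 182000 to 542000 against 6740 to 13700. Of 16 macrophage markers 2 were higher and 1 lower, but their summed signal was 91000 to 102000 in duct cells against 16500 to 19200 in hepatocytes. The part of stress and of other cell types in the ligand levels was not tested.

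The hepatocyte fraction did not differ from whole liver in any ligand by the limma call, where 0.798% of all genes were called. At an unadjusted p under 0.05 there were 3 ligands, and with Agilent's log ratio 2 were called lower. The median difference was -0.11.

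EM organoids and sorted duct cells were compared with each other, on the same arrays as above. The organoids had less Cxcl1, Cxcl10 and inflammatory CC ligands and more Cxcl5, Ccl20 and Cxcl17. Of 34 ligands 25 were called, 6 higher in EM organoids and 19 lower, where 26.6% of all genes were called, 12.4% higher and 14.2% lower. The median was -2.25 for the ligands and -0.03 for all genes.

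Cxcl1 fell from 5.32 and 6.86 in duct cells to -5.62 and -5.01, below background, in EM organoids (at least 259-fold lower, adjusted p = 1.6e-09). Cxcl10 fell from 5.55 and 6.45 to -3.68 and -2.25, below background (at least 300-fold lower, adjusted p = 5.84e-08). Ccl4 fell from 2.86 and 3.62 to -5.00 and -3.73, below background (at least 138-fold lower, adjusted p = 4.71e-06). No duct array came near the organoid arrays for any of the 3. Cxcl12 had a value on 1 duct array, 1.59, since the spots on slide 11 were outliers, against -7.04 and -5.83 (-8.03 ± 0.41, adjusted p = 6.48e-10). The second probe read 0.74 and 1.35 in duct cells against -5.53 and -5.62. Of 11 inflammatory CC ligands 10 were lower and 0 higher (median -3.51), and all 3 ligands of Cxcr3 were lower.

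The organoids were higher in 6 ligands. Cxcl5 read 6.05 and 6.31 against 2.52 and 4.31 in duct cells (2.76 ± 0.58, adjusted p = 7.13e-04), and Ccl20 read 2.74 and 2.93 against 0.32 and 0.44 (2.46 ± 0.36, adjusted p = 1.64e-05). Cxcl17 read 2.30 and 2.44 against -0.02 and 0.05, below background (at least 16.7-fold higher, adjusted p = 2.83e-10). Both EM arrays lay above both duct arrays in each, and Ccl20 and Cxcl17 were above background on 5 and 2 arrays of the series. For Cxcl17 these 2 were the EM arrays, so it was tested only because it was high there. Ppbp, a platelet chemokine, was at least 2.54-fold higher and Ccl27a 1.35 ± 0.27. Ccl28 was called at 2.02 ± 0.64 and stood at 0.56 (adjusted p = 0.504) without EM replicate 2. With Cy3 alone, Cxcl5 stood at 1.86 (adjusted p = 0.132).

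Cxcl2, Cxcl3, Cxcl16 and Cx3cl1 were above background on all EM and duct arrays, and no difference was called. Cxcl16 differed by -0.29 (95% interval -1.28 to 0.70) and Cxcl3 by -1.50 (-2.92 to -0.08), with arrays that overlapped. Cxcl2 differed by -1.98 (-3.71 to -0.24) and Cx3cl1 by -0.75 (-1.46 to -0.05), without overlap, at adjusted p of 0.0661 and 0.0854. Ccl2 was called lower at -2.27 ± 0.52, and stood at -1.19 (adjusted p = 0.0698) without duct replicate 2.

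In the NF-kB list 12 of 15 were lower and 2 higher, the growth factors Csf2 (1.98 ± 0.33) and Csf3 (1.45 ± 0.17). Il6 was at least 527-fold and Il1b at least 19.6-fold lower. Of the interferon list 14 of 15 were lower (median -4.15), with Iigp1 at least 266-fold and Isg15 at -6.17 ± 0.55, and of the receptors 7 of 20, with Ackr2 at least 17.6-fold and Ccrl2 at -3.99 ± 0.71. Stress genes (11 of 12), endothelial (11 of 12), stellate cell and fibroblast (11 of 12) and macrophage markers (8 of 16) were lower in the organoids, whereas 3 of 10 bile duct markers were higher. The summed stress signal was 49800 to 61700 in EM organoids and the stellate and fibroblast sum 2950 to 3100. Their part in the ligand levels was not tested.

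Cells sorted for Lgr5 at day 6 of CCl4 were compared with the sorted duct cells, which share slides 11 and 12 with them and are the duct arrays of the comparisons above. They had lower levels of most ligands that were high in duct cells, and more Ccl24. Of 34 ligands 20 were called, 3 higher and 17 lower, where 11.3% of all genes were called, 5.76% higher and 5.50% lower. Of all called genes 51.1% were higher, 29.6% with Agilent's log ratio and 68% with Cy3 alone. The median was -0.88 for the ligands and 0.05 for all genes.

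Ccl24 read 4.17 and 1.80 in Lgr5-sorted cells against -2.32 and -1.36 in duct cells (4.82 ± 0.48, adjusted p = 9.29e-07), and higher than in every other group. Ccl6 read 7.12 and 2.62 against 1.33 and 2.68 (2.86 ± 0.96, adjusted p = 0.0454). Its arrays overlapped, and without Lgr5-sorted replicate 1 the difference was 0.61 (adjusted p = 0.708), and without duct replicate 1 or 2 it was 2.19 (0.296) or 3.54 (0.0587). Ccl25 was called at 1.33 ± 0.24, with 0.38 by its second probe. Ccl4 read 4.96 and 0.12 against 2.86 and 3.62, with the Lgr5-sorted arrays on either side of the duct arrays, and was not called.

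Cxcl1 read 1.25 and -1.31 against 5.32 and 6.86 (-6.12 ± 0.80, adjusted p = 1.84e-05). Ccl19 read 0.14 and 0.67 against 4.04 and 6.79 (-5.00 ± 0.65, adjusted p = 2.32e-05). Cxcl3 read 0.00 and -0.41, below background, against 2.53 and 6.57 (at least 38.9-fold lower, adjusted p = 4.82e-05). In each the duct arrays lay above both Lgr5-sorted arrays. Cxcl10 read 3.19 and -0.09 against 5.55 and 6.45 (-4.45 ± 0.83, adjusted p = 6.68e-04). The Lgr5-sorted arrays themselves stood apart by more than 2 log2 units for Cxcl1, Cxcl2, Cxcl10, Ccl3, Ccl4, Ccl6 and Ccl24, with the first always higher. On the first slide 19 of 19 called ligands with a value, and on the second 19 of 20, had the sign of the pooled difference, Ccl6 being the exception. All called ligands but Ccl6 had arrays without overlap, so their sign on a slide could not differ. Ccl8, Ccl11, Cxcl11 and Cxcl14 lost their calls without duct replicate 2, at -0.77, -2.03, -0.65 and -0.47 (adjusted p from 0.061 to 0.66), leaving 14.

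**Figure D4:**
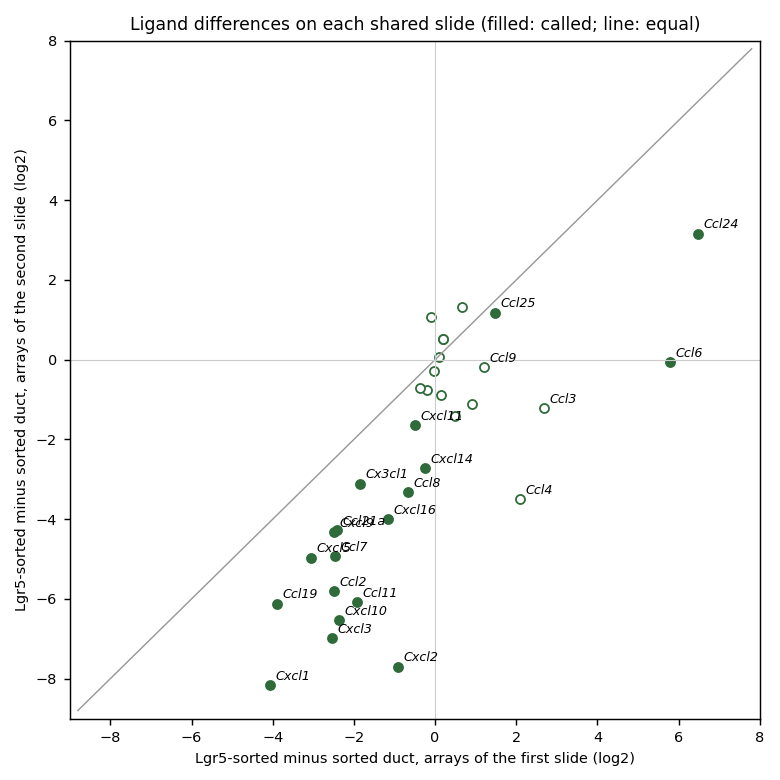
Difference of log2 ratio between the Lgr5-sorted and the sorted duct array of the first shared slide (x axis) against that of the second (y axis), 1 point per ligand with values on both; filled points were called and the line marks equal differences. Ccl6 lay at 5.79 and -0.06, and Cxcl1 at -4.07 and -8.18.

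Of the NF-kB list 14 of 15 were lower in Lgr5-sorted cells, Il6 at -7.20 ± 0.57 and Icam1 at -3.69 ± 0.50. In the interferon list 1 was higher, Ifit3 (1.18 ± 0.36), and 6 were lower, led by Iigp1 (-2.87 ± 0.49) and Isg15 (-1.83 ± 0.55). Of 20 receptors tested 4 were lower, Ackr1 by at least 29.6-fold and Ccrl2 at -2.46 ± 0.71. Macrophage markers rose with Ccl24: 13 of 16 were higher and 1 lower. Of the bile duct markers 8 of 10 were lower, with a sum of 15400 to 30000 against 202000 to 271000. Of 12 stellate cell and fibroblast markers 7 were lower and 1 higher (sum 29100 to 60200 against 182000 to 542000). Of 12 endothelial markers 4 were lower (12600 to 158000 against 133000 to 162000), as were 4 of 12 stress genes (40000 to 487000 against 483000 to 704000). Their part in the ligand levels was not tested.

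Livers at day 3 of CCl4 were compared with the mean of adult and whole liver to ask what injury changes. The day 3 arrays shared no slide or scan day with the undamaged livers, so injury and slide cannot be told apart. Of 34 ligands 4 were called, all higher, where 6.98% of all genes were called, 4.96% higher and 2.02% lower. The median was 0.06 for the ligands and 0.01 for all genes. Of all called genes 71% were higher, and 53.5% with Cy3 alone. With Cy3 alone 3 ligands were called higher and 2 lower, and with Agilent's log ratio 2 higher and 1 lower.

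Pf4 read -1.38 and -1.24 at day 3, against -4.18 and -3.97 in adult liver and -3.26 and -3.06 in whole liver (2.31 ± 0.26, adjusted p = 3.15e-06). Cxcl14, a chemokine of epithelia and fibroblasts, read 2.59 and 2.66, against 0.89 and 1.49 in adult and -0.23 and -0.37 in whole liver (2.18 ± 0.41, adjusted p = 9.52e-04). Both day 3 arrays lay above all 4 undamaged livers for both. Ccl9 read 2.99 and 3.35, against 2.25 and 1.65 and 1.36 and 2.14 (1.32 ± 0.30, adjusted p = 0.00484; 0.101 without day 3 replicate 2). Cxcl1 read 0.52 and -0.13, against -2.84 and -2.29 and -2.47 and -1.15 (2.38 ± 0.69, adjusted p = 0.0234). Without either day 3 array, adult liver replicate 1 or whole liver replicate 1 the Cxcl1 call was lost (adjusted p from 0.0665 to 0.234, difference from 2.05 to 2.71). Against adult liver alone all 4 calls held, and against whole liver alone 3, with Cxcl1 at 2.01 (adjusted p = 0.0987). Ccl2 read -2.76 and -2.63 at day 3 and -4.17 to -3.50 in the undamaged livers, and was not called. Cxcl16 was not called either, at 0.15 by the probe used, but a second probe, which was not tested, was 1.81 higher at day 3.

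**Figure D5:**
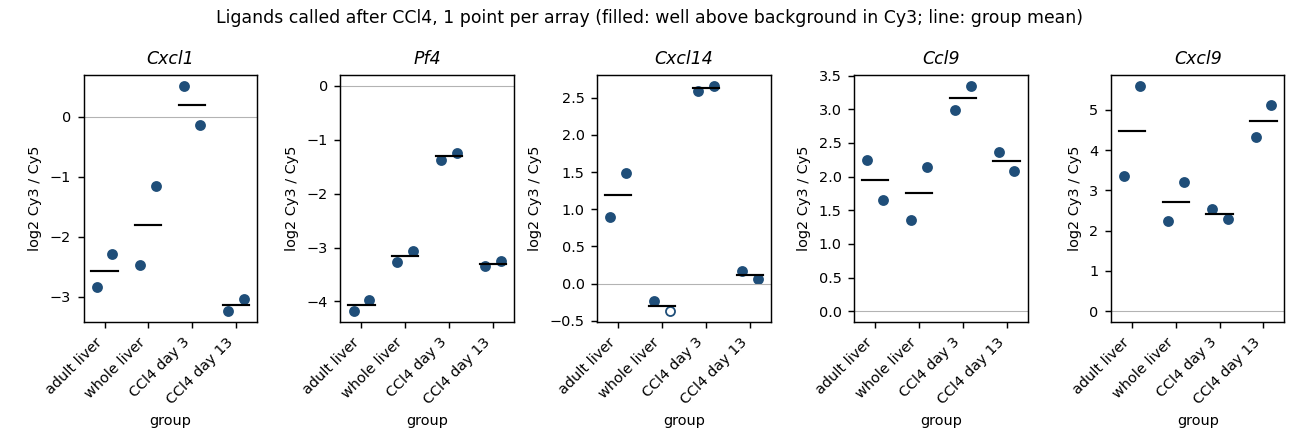
Log2 ratio of sample to reference (y axis) of Cxcl1, Pf4, Cxcl14, Ccl9 and Cxcl9 on each array of undamaged liver and of liver at day 3 and day 13 of CCl4 (x axis); filled points are well above background in Cy3 and lines are group means. Cxcl14 stood at 2.59 and 2.66 at day 3 and at 0.17 and 0.06 at day 13.

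Of the receptors 4 of 20 were higher at day 3 and 0 lower, led by Ccr2 of monocytes (2.88 ± 0.30) and Cx3cr1 (1.61 ± 0.50). In the NF-kB list Icam1 was higher (1.42 ± 0.44), and in the interferon list Igtp was lower (-1.45 ± 0.44). Stellate cell and fibroblast markers rose with the ligands, 6 of 12, with a sum of 77000 to 87700 at day 3 against 16400 to 29600 in the undamaged livers. Of 16 macrophage and 8 platelet and megakaryocyte markers 1 each was higher. Their part in the ligand levels was not tested.

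At day 13 no ligand was called against undamaged liver, where 1.35% of all genes were called by limma. At an unadjusted p under 0.05 there were 0 ligands, and 1 was called higher with Agilent's log ratio. A second Cxcl16 probe, which was not tested, was 1.33 higher at day 13, against 0.18 by the probe used. Day 13 was also set against day 3, which shares its slide. There 4 ligands were called, 1 higher and 3 lower, where 5.68% of all genes were called, 2.13% higher and 3.55% lower. The medians were -0.10 and 0.01.

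Cxcl14 was at 0.17 and 0.06 at day 13 against 2.59 and 2.66 at day 3 (-2.51 ± 0.47, adjusted p = 0.00143). Pf4 was at -3.35 and -3.25 against -1.38 and -1.24 (-1.99 ± 0.30, adjusted p = 1.47e-04). Cxcl1 was at -3.24 and -3.03 against 0.52 and -0.13 (-3.33 ± 0.80, adjusted p = 0.0102). All 3 had day 13 values within or just below the range of the undamaged livers. Cxcl9 was higher, at 4.33 and 5.12 against 2.55 and 2.28 (2.31 ± 0.64, adjusted p = 0.026), while undamaged livers read 2.23 to 5.60. The Cxcl9 call was lost without any 1 of the 4 arrays (adjusted p from 0.0562 to 0.252) and with Agilent's log ratio (0.89, adjusted p = 0.421). The Cxcl1 call was lost without 3 of the 4 (adjusted p from 0.0636 to 0.115). Of the receptors Cxcr6 was higher (1.13 ± 0.33) and Ccr2 (-2.61 ± 0.35) and Ackr3 (-1.08 ± 0.28) were lower, and no gene of the NF-kB or interferon lists was called. Of the stellate cell and fibroblast markers 4 of 12 were lower.

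Outside liver, white and brown adipose tissue and muscle were compared as wildtype tissues. White adipose tissue had the highest Pf4, at 1.74, 1.97 and 1.62. In brown against white adipose tissue 14 of 34 ligands were called, 3 higher and 11 lower, where 19.0% of all genes were called, 9.62% higher and 9.34% lower. The median was -0.44 for the ligands and 0.03 for all genes. For 3 of the 11, Cxcl5, Cxcl1 and Ccl17, no white adipose array was above background, and no direction is given.

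Pf4 read -0.02, 0.21 and -0.89 in brown adipose tissue, below all 3 white adipose arrays (-2.01 ± 0.24, adjusted p = 2.36e-06). Ccl24 read -2.98, -2.98 and -3.51 against -0.82, -1.31 and -0.95 (-2.13 ± 0.39, adjusted p = 2.46e-04). The other lower ligands, Ccl2, Ccl3, Ccl5, Ccl7, Ccl9 and Ccl19, differed by 1.46 to 1.66 log2 units in the fit. Cxcl9 read 2.61, 3.52 and 2.11 in brown adipose tissue against 0.10, 0.04 and 0.45 in white (2.55 ± 0.52, adjusted p = 6.05e-04), with no overlap. Ccl27a read 1.90, 1.89 and 2.14 against 0.96, 0.28 and 1.24 (1.15 ± 0.22, adjusted p = 3.26e-04). Ccl21a was called higher at 1.11 ± 0.40, but stood at -0.39 with Cy3 alone. With Agilent's log ratio 7 ligands were called, with Cy3 alone 8, and without white adipose replicate 2 it was 7. Ccl3, Ccl5 and Ccl7 were then at -1.12, -1.33 and -1.57 (adjusted p from 0.0532 to 0.129), and Ccl19 was at -0.89 (0.187) without white adipose replicate 3. Of stellate cell and fibroblast markers 8 of 12 and of macrophage markers 6 of 16 were lower in brown adipose tissue, and 4 of 9 neutrophil markers were higher. Of 6 muscle markers 1 was higher in brown adipose tissue, with a summed signal of 28900 to 168000 against 9580 to 436000 in white. Their part was not tested. Of the NF-kB list 5 of 15 were lower, among them Csf1 (-1.49 ± 0.32), of the receptors Cxcr4 (-1.30 ± 0.33) and Ackr3 (-1.01 ± 0.23), and of the interferon list Ifit1 (-1.14 ± 0.33) and Psmb8 (-1.05 ± 0.28).

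White adipose tissue, whose arrays are shared with the last comparison, differed from muscle in 9 ligands, 5 higher and 4 lower, where 12.6% of all genes were called, 4.58% higher and 8.03% lower. Of all called genes 36.3% were higher, 50% with Agilent's log ratio and 48.7% with Cy3 alone. The median was 0.45 for the ligands and 0.00 for all genes. Cxcl5, called higher, was above background on no array of either tissue.

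Ccl24 read -0.82, -1.31 and -0.95 in white adipose tissue against -2.27, -2.91 and -3.14 in muscle (1.75 ± 0.39, adjusted p = 0.00235). Pf4 read 1.74, 1.97 and 1.62 against 0.59, 0.42 and 0.09 (1.41 ± 0.24, adjusted p = 1.75e-04), and Cx3cl1 -2.93, -2.31 and -2.81 against -3.77, -3.74 and -3.77 (1.08 ± 0.28, adjusted p = 0.00619). With the mean of its probes Cx3cl1 stood at 0.93, too small a difference for a call. Cxcl9 was higher in muscle, at 3.69, 3.08 and 2.63 against 0.10, 0.04 and 0.45 (-2.94 ± 0.52, adjusted p = 2.45e-04). None of these overlapped. Cxcl14 read 2.48, 2.16 and 2.59 in muscle against -0.14, -0.11 and -0.72 (-2.73 ± 0.39, adjusted p = 2.08e-05). Ccl21a read 2.82, 3.12 and 3.01 against 0.56, 0.14 and 1.43 (-2.28 ± 0.40, adjusted p = 2.51e-04), and -0.31 with Agilent's log ratio (adjusted p = 0.839). Ccl27a was at -1.56 ± 0.22. Ccl9 was 1.02 ± 0.29 higher in white adipose tissue, and 0.88 (adjusted p = 0.0563) without white adipose replicate 1. On the slide that holds 1 array of each tissue, all 9 called ligands had the sign of the pooled value. With no overlap between the tissues for any of the 9, that was bound to be so. With Agilent's log ratio 4 ligands were called. Summed muscle marker signal in white adipose tissue ran from 9580 to 436000. Of 16 macrophage markers 4 were higher in white adipose tissue (sum 38800 to 47400 against 19100 to 26000) and of 14 lymphocyte markers 3, while 6 of 9 neutrophil markers were lower (7150 to 14200 against 18400 to 39500). Their part in the ligand levels was not tested. Of the interferon list 8 of 15 were higher in white adipose tissue, led by Ifit1 (1.68 ± 0.33), and Igtp was lower (-1.21 ± 0.41). Of the receptors Cxcr6 (at least 1.31-fold) and Ccr9 (1.06 ± 0.31) were higher and Cx3cr1 (-1.40 ± 0.47) and Cxcr2 (at least 1.64-fold) lower.

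Pancreas entered no test. Its first array was the dimmest of the series, with 8 ligands above background. Cxcl14 was above background on both pancreas arrays at 1.92 and 1.55, and Ccl28 at 3.32 and 0.86.

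The order of group levels differed between ligands. For Cxcl5 the EM organoids (6.05 and 6.31) lay above the DM organoid (3.75), whose value fell between the duct arrays (2.52 and 4.31), so the latter pair is not set apart by its spread. For Cxcl1 the duct arrays were alone at the top, followed by day 3 (0.52 and -0.13) and Lgr5-sorted cells (1.25 and -1.31), which overlapped. For Ccl2 the duct arrays came first and the EM arrays next. For Cxcl12 the liver samples lay together by the probe used, from 0.62 to 1.59, above muscle, adipose tissue, pancreas and the Lgr5-sorted array with a value (-2.10 to -1.03), and the organoids lay lowest. By the second Cxcl12 probe the organoids were again lowest and the duct arrays highest, but the other liver samples did not stand apart: whole liver read -0.08 and -1.63 and hepatocytes -0.81 and -0.59, overlapping white adipose tissue at -0.81, -0.95 and -0.72.

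As a description over the 13 group means, which share the reference and the slides, the genes whose pattern was most like that of Cxcl5 were Eva1c (Pearson r = 0.984), Epcam (0.975) and Serpinb6b (0.975). Those most like Cxcl1 were Rybp (0.953), the transcript AK008871 (0.952) and Zfp36 (0.937), and those most like Ccl2 were Osmr (0.960), Ccn1 (0.938) and Cebpd (0.937). Cxcl12 was most like Cd59a (0.956), the transcript NAP037699-1 (0.953) and Rarres2 (0.949).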

How the data were processed

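The authors deposited the scanner output of 28 two-colour arrays, whose intensity columns hold median Cy3 and Cy5 spot and background signals. Per the file headers it was made with Agilent Feature Extraction 10.5.1.1, while the submitters' processing notes name 8.5.1.1. The deposited log10 ratio of Cy5 over Cy3 was used, with its sign turned, as an alternative.

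Intensities were background-corrected (normexp, offset 50) and loess-normalized within arrays in limma 3.58.1 (R 4.3.3), with 1639 of 45018 spots, the controls, at weight 0 and outlier spots (0.688%) left out. Of a gene's probes the one with the highest mean Cy3 was used, and names came from RefSeq GRCm38.p6 for 16786 of 21047 genes. Probes were kept if 2 or more arrays had a Cy3 signal well above background. One limma fit of 13 group means (15 residual degrees of freedom) gave two-sided p-values with Benjamini-Hochberg adjustment over all genes. The procedure was tested on simulated data. Arrays, not reads, limit the precision.

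The ligands and gene lists were chosen with earlier results of these data known. Any ligand could be named. Values by array were due for up to 4 called ligands per comparison and direction with the largest change, and in each pathway list the 2 called genes with the largest change per direction were named, except some that are not reported here. Array values of further ligands, such as Cxcl1 in EM against adult liver, were added after their values were seen. For Cxcl5, Cxcl1, Ccl2 and Cxcl12 the 3 genes with the highest Pearson correlation were named. Alternatives covered the deposited ratios, Cy3 alone, Aquantile, the filter, the probe rule, left-out arrays, replicate and slide blocks, and the choice of liver.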

Additional observations from a re-analysis of the deposited data

How the results depend on the processing

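Under every alternative run, the counts of called ligands stayed within 1.5 times for EM against adult liver, duct against hepatocytes, EM against duct and Lgr5-sorted against duct, and moved by more under at least 1 in the other comparisons. With Agilent's log ratio they were 4 for DM against EM, 2 for hepatocytes against whole liver, 1 for day 13 against undamaged liver, 2 for day 13 against day 3, 7 for brown against white adipose tissue and 4 for white adipose tissue against muscle; with Cy3 alone, brown against white gave 8. Leaving out 1 array gave 17 to 25 calls for EM against adult liver, 5 to 9 for DM against EM, 20 to 23 for duct against hepatocytes, 22 to 28 for EM against duct, 14 to 19 for Lgr5-sorted against duct, 2 to 7 for day 3, 2 to 3 for day 13 against day 3, 7 to 17 for brown against white and 8 to 11 for white adipose tissue against muscle. It gave 0 to 0 for hepatocytes against whole liver and for day 13 against undamaged liver. Signs turned in brown against white for Ccl17 (0.34 with Agilent's log ratio, 0.13 with Cy3 alone), Cxcl1 (0.80 and 0.56) and Ccl21a (-0.39 with Cy3 alone), and in EM against adult liver for Cxcl14 (0.03 with whole liver instead). The cause was not tested. Of 131 calls, 103 were kept with Agilent's log ratio, 106 with Cy3 alone and 129 with slide as a random block. With Cy3 alone the median of all genes moved to 0.66 for Lgr5-sorted against duct and to -0.33 for EM against duct. The replicate block kept 129 of 131 calls, losing Cxcl2 in DM against EM (adjusted p = 0.0595) and Ccl6 in Lgr5-sorted against duct (0.0574), with 26 calls for EM against adult liver, 7 for DM against EM and 5 at day 3. Arrays of 1 replicate number correlated by -0.19 to 0.44 in their deviations. A block with crossed day 3 numbers, added after seeing the data, called 4 for day 13 against day 3. Few arrays per group and dim arrays limit what could be called.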
